A study of Danio rerio with 12 samples.

Results

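Transgenic zebrafish embryos that overexpress *dmrt2a* were compared with control embryos in Region 2, the posterior piece that lies below the last formed somite pair and holds the tailbud, the presomitic mesoderm and the left-right organiser (Kupffer's vesicle). The members were the arrays titled Region 2, which are 6 of the 12 arrays of the series: 3 of transgenic and 3 of control pieces. Transgenic embryos were Tg(hsp70:HA-*dmrt2a*), from a line with a single copy of an HA-tagged *dmrt2a* transgene. The hsp70 promoter is switched on by heat and was not chosen for a tissue; in which cells the transgene was expressed was not measured here. Control embryos were wildtype and received the same heat-shock at bud stage (30 min at 39 °C). All lines had a Tubingen background. Transgenic embryos came from an outcross of homozygous fish, so transgene and parents differed together and cannot be told apart. Embryos of both groups were kept at 28 °C afterwards, and pieces were cut from 2 h to 2 h 30 min later, at the 3- to 4-somite stage, and every array was hybridised with RNA of a pool of 100 pieces. The other 6 arrays hold the same contrast in Region 1, the piece with the somites.

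Dmrt2a belongs to the family of transcription factors with a DM domain, the DNA-binding domain of Doublesex and Mab-3. In zebrafish it is known for keeping somite formation in step on both sides and for the left-right axis. The tailbud is a growth zone: it feeds the presomitic mesoderm and the spinal cord, and its ventral part gives blood and vessel precursors. The left-right organiser is a ciliated vesicle at its base, and between the embryo and the yolk lies the yolk syncytial layer, a layer that exports lipid and nutrients from the yolk into the embryo.

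The table holds 1 log2 signal for each of 75212 probe sets per array, of which 29528 carry a single gene symbol and name 20485 genes. A gene stands for its brightest probe set over the 6 arrays. A call therefore need not hold for the dimmer probe sets of a gene, which are given below for some genes only. Pairs of arrays of a group correlated at 0.988 to 0.992, the median signal of an array lay between 3.29 and 3.32, and the median SD within a group was 0.13. The labelled region held in the control pieces: compared with Region 1, Region 2 was higher in *msgn1* by 4.68, in *tbx16* by 4.54 and in *eve1* by 5.40 on the log2 scale, genes of the presomitic mesoderm and the ventral tailbud, and higher in *dand5*, a marker of the left-right organiser, by 1.98, while the hindbrain gene *egr2b* had a difference of -3.63. These passed the limma test, as did 11.9% of all named genes in the higher direction and 25.5% in the lower. *foxj1a* and *sox17*, further markers of the left-right organiser, had differences of -0.38 and -0.38, so these were not higher in Region 2. All tests below are limma with a Benjamini-Hochberg adjustment over all probe sets, and a gene is said to have risen or fallen where its adjusted p was under 0.05.

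Transgenic pieces lost expression far more often than they gained it. Of the 20485 named genes, 180 fell (0.879%) and 28 rose (0.137%). No array of a called gene overlapped with the other group, which was also so for 4772 of the 20485 named genes. Past a fold change of 2, 46 genes fell (0.225%) and 2 rose (0.00976%), the transgene's own gene *dmrt2a* and *lrrn3b*. Among the 9289 well-expressed genes, with a mean log2 signal above 5, a moderate change under a fold of 2 was found in 116 genes that fell (1.25%) and 22 that rose (0.237%). Over probe sets, 83 fell and 11 rose past a fold of 2, and 301 fell and 51 rose with no minimum. The moderate falls lay between -0.99 and -0.48 with a median of -0.67, and the moderate rises between 0.46 and 0.99 with a median of 0.68. The median change over all probe sets was -0.0059.

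These counts rest on every one of the 6 arrays. Without 1 array the fit passed between 16 and 68 probe sets past a fold of 2, against 94 with all, the lowest without control replicate 3 (16) and the next lowest without transgenic replicate 2 (25). It passed 41 without transgenic replicate 1, 39 without control replicate 1 and 40 without control replicate 2. Moderate changes dropped to between 0 and 6 genes. Of the 208 called genes, 10 kept their call whichever array was left out: *dmrt2a*, *g6pc1a.2*, *etv2*, *grin2da*, *adora2b*, *pxdc1b*, *prdm12b*, *nkx1.2la*, *foxj1b* and *myf5*. The call of any other gene named below was lost without at least 1 array, and 162 genes were called only with all 6. The share of genes called also followed the level: it was 0.0779% where the mean log2 signal was 3 or less and 2.12% between 7 and 8. The share of all named genes set beside a list below is over all levels and is not matched to its members.

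**Figure D1:**
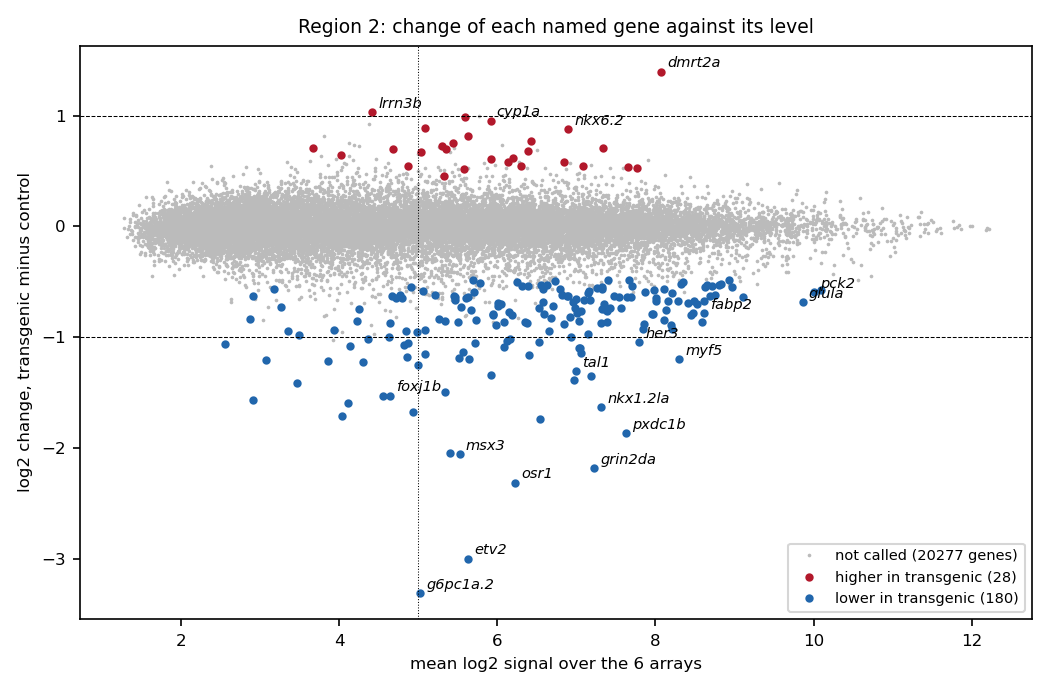
Each point is a named gene, with its mean log2 signal over the 6 Region 2 arrays on the x axis and its log2 change (transgenic minus control) on the y axis; dashed lines mark a fold of 2 and the dotted line a mean of 5. The 180 genes that fell (blue) form a band below the cloud that reaches to the brightest genes, while only *dmrt2a* and *lrrn3b* of the 28 that rose (red) pass the upper line.

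*dmrt2a* itself was 2.63-fold higher. Its log2 signal was 8.75, 8.70 and 8.84 in transgenic pieces, against 7.36, 7.41 and 7.33 in control pieces (log2 change 1.40, SE 0.072, limma adjusted p = 0.00352), so that all transgenic arrays lay well above the control arrays. The probe set does not tell the transgene's transcripts from those of the endogenous gene. *dmrt2b*, the second zebrafish copy of the gene, had 3.02, 2.63 and 2.91 in transgenic pieces, against 3.29, 3.23 and 3.67 in control pieces and did not pass (log2 change -0.54, SE 0.15, limma adjusted p = 0.263). No other of the 5 measured DMRT genes was called.

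The largest fall was of *g6pc1a.2*, the catalytic subunit of glucose-6-phosphatase, which releases free glucose at the end of gluconeogenesis. It measured 3.42, 3.27 and 3.43 in transgenic pieces, against 6.54, 6.75 and 6.74 in control pieces (log2 change -3.30, SE 0.091, limma adjusted p = 0.000622). The transgenic signals lay at the level of the array medians and background was not assessed, so how far the gene fell below that level is not known, and the same holds for the transgenic signals of *prdm12b* and *g6pc1a.1* below. A second, dimmer probe set of the gene had a log2 change of 0.0092 (adjusted p = 0.989), so the fall rests on 1 of its 2 probe sets. *etv2*, the Ets factor that starts the vessel programme in angioblasts, measured 4.35, 4.14 and 3.92 in transgenic pieces, against 7.01, 7.16 and 7.23 in control pieces (log2 change -2.99, SE 0.13, limma adjusted p = 0.00194), 7.97-fold lower. *osr1*, a zinc finger factor of the intermediate mesoderm, measured 5.34, 5.05 and 4.82 in transgenic pieces, against 7.44, 7.37 and 7.34 in control pieces (log2 change -2.31, SE 0.14, limma adjusted p = 0.00414). In each of these 3 genes the groups were apart, and the gap was wider than the range of either group.

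*grin2da*, a subunit of the NMDA glutamate receptor, fell 4.52-fold, and both of its probe sets were called. Its signal was 6.01, 6.16 and 6.23 in transgenic pieces, against 8.26, 8.33 and 8.34 in control pieces (log2 change -2.18, SE 0.083, limma adjusted p = 0.00194). *adora2b*, a receptor for adenosine, fell to 4.29, 4.53 and 4.34 in transgenic pieces, against 6.24, 6.54 and 6.49 in control pieces (log2 change -2.04, SE 0.11, limma adjusted p = 0.00375). *pxdc1b*, which encodes a protein with a PX domain, measured 6.66, 6.59 and 6.85 in transgenic pieces, against 8.57, 8.56 and 8.56 in control pieces (log2 change -1.86, SE 0.086, limma adjusted p = 0.00286). The SD of *pxdc1b* was 0.13 in transgenic pieces and 0.0022 in control pieces (n = 3 each). *foxj1b*, a forkhead factor of motile cilia, measured 3.81, 3.86 and 3.96 in transgenic pieces, against 5.31, 5.37 and 5.53 in control pieces (log2 change -1.52, SE 0.086, limma adjusted p = 0.00375), with all 3 of its probe sets called. The brightest of these probe sets is repeated with the same values, so not all 3 are distinct measurements. *foxj1a*, the paralogue that drives cilia in the left-right organiser, had a change of 0.41 (adjusted p = 0.261) in the other direction and did not pass. Of the 22 measured genes of the organiser and of left-right signals, *foxj1b* was 1 of 2 that fell (9.09%, against 0.879% of all named genes), and none rose; *dand5* had a log2 difference of 0.14 (adjusted p = 0.661), *sox17* one of -0.28 (adjusted p = 0.452) and *spaw* one of 0.12 (adjusted p = 0.915). Axonemal dyneins (25 genes) and intraflagellar transport genes (16) had 0 calls by limma, with 2 dyneins lower and 3 higher and 1 transport gene lower at an unadjusted p under 0.05, and 0 by a trended, robust limma fit. At that unadjusted p, 1626 of all 20485 named genes were lower and 1094 higher.

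**Figure D2:**
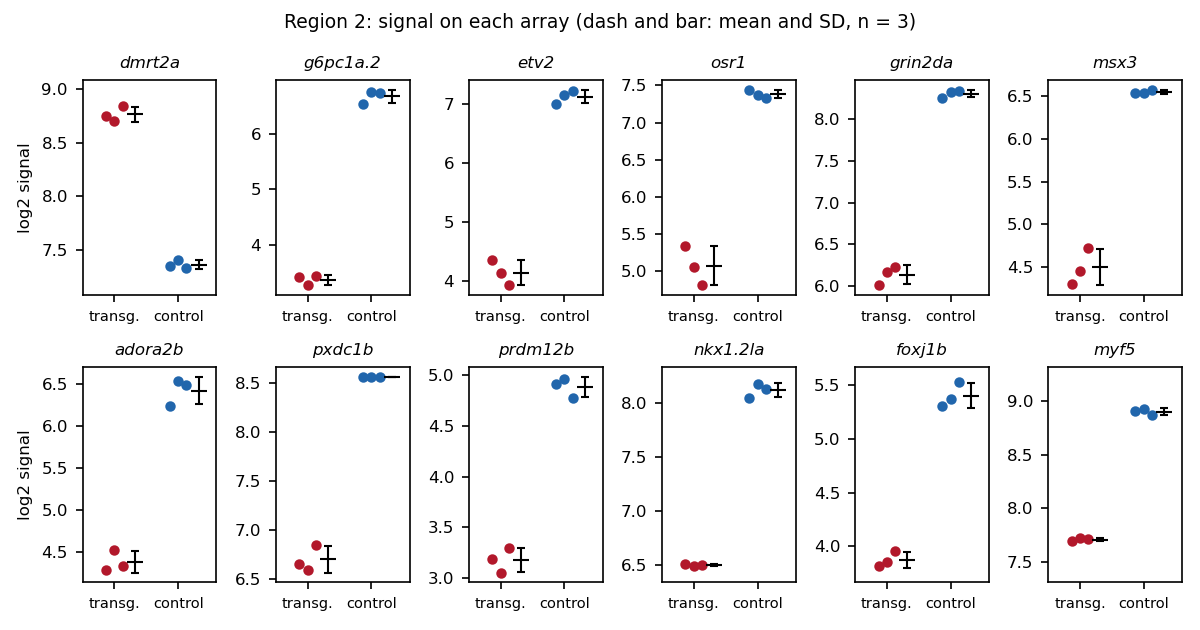
Log2 signal of 12 genes on each Region 2 array, transgenic (red) left of control (blue), with the mean and SD (n = 3) beside the points; each panel has its own y axis. In every panel the groups are apart, *dmrt2a* with transgenic pieces on top and the other 11 genes with control pieces on top.

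Genes of the spinal cord and posterior neural plate passed the test in both directions. Of 58 measured members of that list 8 fell (13.8%) and 3 rose (5.17%), against 0.879% and 0.137% of all named genes, and the median over the list was -0.11. Those that fell are known from dorsal and intermediate neural tissue and from the preneural tube. *msx3*, a homeobox gene of the dorsal neural tube, measured 4.31, 4.46 and 4.73 in transgenic pieces, against 6.54, 6.53 and 6.57 in control pieces (log2 change -2.05, SE 0.11, limma adjusted p = 0.00375). *prdm12b*, a Prdm factor of intermediate neural progenitors, measured 3.19, 3.05 and 3.29 in transgenic pieces, against 4.91, 4.97 and 4.78 in control pieces (log2 change -1.71, SE 0.094, limma adjusted p = 0.00375). *nkx1.2la*, whose mouse relative marks the progenitors of the spinal cord beside the primitive streak, measured 6.51, 6.49 and 6.49 in transgenic pieces, against 8.05, 8.18 and 8.13 in control pieces (log2 change -1.62, SE 0.068, limma adjusted p = 0.00194), and both of its probe sets were called. Its SD was 0.0099 in transgenic pieces and 0.063 in control pieces (n = 3 each). Smaller falls were found for the homeobox gene *dbx1a* at -1.22 (adjusted p = 0.0163), the hairy-related repressor *her3* at -1.04 (adjusted p = 0.016), and the paired-box genes *pax6a* at -0.99 (adjusted p = 0.0224), *pax6b* at -0.86 (adjusted p = 0.0135) and *pax3a* at -0.50 (adjusted p = 0.0481). Thus 3 of 13 measured Pax genes fell (23.1%, against 0.879% of all named genes) and none rose.

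The members that rose were *sox3*, a SoxB1 factor of neural progenitors, *nkx6.2*, a homeobox factor of the ventral neural tube, and *dlb*, a Delta ligand of neural progenitors. *nkx6.2* measured 7.29, 7.24 and 7.47 in transgenic pieces, against 6.35, 6.53 and 6.47 in control pieces (log2 change 0.88, SE 0.092, limma adjusted p = 0.0224). *sox3* measured 5.86, 5.77 and 5.82 in transgenic pieces, against 4.98, 5.15 and 5.07 in control pieces (log2 change 0.75, SE 0.075, limma adjusted p = 0.0204), and its dimmer probe set had a log2 difference of -0.0853 (adjusted p = 0.832). *dlb* had a change of 0.62 (adjusted p = 0.0281), and its relative *dla* one of 0.56 (adjusted p = 0.11), which did not pass. *nkx6.1* had a log2 difference of -0.29 (adjusted p = 0.36). Outside the list, *pnx*, a homeobox gene of early posterior neurons, fell by 0.99 on the log2 scale (adjusted p = 0.00737), and *znf488*, a zinc finger gene, by 0.94 (adjusted p = 0.01); both were chosen after their values were seen. Also, 3 genes of the neural plate border list fell out of 31 measured (9.68%, against 0.879% of all named genes). They were *msx3*, *pax3a* and the Ap-2 factor *tfap2c* at -0.67 (adjusted p = 0.0186). The anterior genes *otx2b* and *six3b* fell at very low signals, with 2.07, 2.03 and 1.99 in transgenic pieces, against 3.01, 3.04 and 3.22 in control pieces for *otx2b*. With *ctslb*, a hatching gland gene, 3 of 31 measured genes of the hindbrain and head list fell (9.68%, against 0.879% of all named genes).

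In the lists for vessel, blood, heart and kidney precursors between 5.88% and 11.1% of the measured members fell, against 0.879% of all named genes, and none rose. *tal1*, the bHLH factor of early blood and vessel precursors, measured 6.22, 6.35 and 6.47 in transgenic pieces, against 7.66, 7.64 and 7.64 in control pieces (log2 change -1.30, SE 0.083, limma adjusted p = 0.00563), 2.46-fold lower. *etv2* and *tal1* were the 2 of 34 measured angioblast and endothelial genes that fell (5.88%), and the median of the list was -0.02. *kdrl*, a vessel receptor, had a change of 0.51 (adjusted p = 0.255). Of 27 primitive blood genes, *tal1*, *cebpa* and *cebpb* fell (11.1%), while *lmo2* at -0.41 (adjusted p = 0.0905) and *gfi1aa* at -0.95 (adjusted p = 0.0593) did not pass. *gata1a*, the factor of red cells, had a log2 difference of 0.22 (adjusted p = 0.571) at a low signal, whereas *cahz*, a carbonic anhydrase of red cells, fell by 1.49 (adjusted p = 0.0438), with the highest transgenic array at 5.03 and the lowest control array at 5.98. The dimmer probe set of *cahz* had a log2 difference of -0.049 (adjusted p = 0.884). In the lateral plate and heart list 2 of 24 fell (8.33%), *hand2* (-0.74, adjusted p = 0.0433) and *gata5* (-0.55, adjusted p = 0.0314). In the pronephros and intermediate mesoderm list 2 of 29 fell (6.90%), *osr1* and the homeobox factor *hnf1bb* (-0.87, adjusted p = 0.0144). In these pooled pieces, fewer cells of a type and less RNA per cell cannot be told apart.

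Within the tailbud and presomitic mesoderm list, 3 of 38 measured genes fell (7.89%, against 0.879% of all named genes) and 0 rose, and those that fell belong to the ventral tailbud and the notochord or mesoderm progenitors. *eve1*, a homeobox gene downstream of Bmp, measured 7.60, 7.53 and 7.60 in transgenic pieces, against 8.28, 8.38 and 8.43 in control pieces (log2 change -0.79, SE 0.072, limma adjusted p = 0.0163). *vox*, a ventral homeobox repressor, changed by -0.53 (adjusted p = 0.0465), and its partner *vent* had a log2 difference of -0.35 (adjusted p = 0.144), which did not pass. *tbxtb*, a Brachyury gene, measured 7.14, 7.33 and 7.21 in transgenic pieces, against 7.86, 7.88 and 7.84 in control pieces (log2 change -0.63, SE 0.075, limma adjusted p = 0.031), while the other Brachyury gene *tbxta* had a change of 0.21 (adjusted p = 0.318). *admp*, a Bmp-like ligand of the dorsal side, rose by 0.58 (adjusted p = 0.031) and *pnhd*, a secreted mesoderm factor, by 0.77 (adjusted p = 0.0333). These genes are next to each other on chromosome 2 in the RefSeq gene order (assembly GRCz12tu). The genes of the segmentation clock and of presomitic mesoderm identity did not pass the test: *her1* had a log2 difference of 0.12 (adjusted p = 0.592), *her7* one of 0.08 (adjusted p = 0.743), *dlc* one of 0.04 (adjusted p = 0.89), *tbx16* one of 0.26 (adjusted p = 0.208), *tbx6* one of 0.17 (adjusted p = 0.424) and *msgn1* one of 0.10 (adjusted p = 0.711). With 3 arrays per group, a p above the threshold does not show that these genes were equal. Over the whole list of 38, 9 genes were lower and 8 higher at an unadjusted p under 0.05. At that p, 1626 of all 20485 named genes were lower and 1094 higher. A trended, robust limma fit called 6 of the list lower and 4 higher, and 481 of all named genes.

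Of the muscle genes, *myf5* and *myod1* fell. *myf5*, the first myogenic factor of the presomitic mesoderm, measured 7.69, 7.72 and 7.71 in transgenic pieces, against 8.90, 8.93 and 8.87 in control pieces (log2 change -1.19, SE 0.063, limma adjusted p = 0.00375), with an SD of 0.014 in transgenic pieces and 0.03 in control pieces (n = 3 each). *myod1*, the related factor of adaxial cells and somites, changed by -0.59 (adjusted p = 0.0422). These were the 2 of 40 genes of the muscle list that fell (5.00%, against 0.879% of all named genes), and none rose. *rbfox1l*, a splicing factor of muscle, fell by 0.92 (adjusted p = 0.00739) and *rbm24a*, an RNA-binding protein of muscle, by 0.54 (adjusted p = 0.0328). *foxc1a* and *foxc1b*, forkhead factors of paraxial mesoderm, had log2 differences of -0.19 (adjusted p = 0.374) and -0.48 (adjusted p = 0.133). In the forkhead family *foxd2* rose (0.89, adjusted p = 0.0185) and *foxj1b* and *foxb1a* fell, of 63 measured. The shares were 1.59% higher and 3.17% lower, against 0.137% and 0.879% of all named genes.

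Moderate falls in well-expressed genes included genes of lipid transport, absorption and liver-type metabolism. In the list for the yolk syncytial layer and endoderm, 8 of 28 measured genes fell (28.6%, against 0.879% of all named genes) and none rose: *fabp2*, *apoa4b.2*, *slc26a1*, *slc30a8*, *cebpa*, *g6pc1a.1*, *g6pc1a.2* and *ctslb*, the last a hatching gland gene too. The gene lists were chosen with earlier results of these data known, so this share and those of the other lists are descriptions only. Of the 8, *g6pc1a.1*, *g6pc1a.2* and *ctslb* fell past a fold of 2, so the share is not one of moderate falls alone. The list median and mean that follow include the 8 called genes. The median of the list was -0.31, against -0.0011 over all named genes, and its mean log2 signal was 6.15 to 6.19 on the transgenic arrays, against 6.61 to 6.64 on the control arrays. *fabp2*, an intestinal fatty acid binding protein, averaged 8.23 ± 0.023 in transgenic pieces and 9.01 ± 0.085 in control pieces (SD, n = 3 each; log2 change -0.78, SE 0.073, limma adjusted p = 0.0169). *apoa4b.2*, an apolipoprotein of lipid absorption, measured 7.68, 7.77 and 7.79 in transgenic pieces, against 8.60, 8.69 and 8.64 in control pieces (log2 change -0.89, SE 0.07, limma adjusted p = 0.01). *slc26a1*, a sulphate transporter, changed by -0.86 (adjusted p = 0.0286), and *slc30a8*, a zinc transporter, by -0.60 (adjusted p = 0.0343). *cebpa*, a factor of liver and myeloid cells, changed by -0.67 (adjusted p = 0.0205), with all 3 of its probe sets called. The brightest probe set of *cebpa* is repeated with the same values, so not all 3 are distinct measurements. Bright genes of the layer did not pass: *apoa1b* had 11.08, 11.11 and 11.15 in transgenic pieces, against 11.13, 11.28 and 11.16 in control pieces and a log2 difference of -0.08 (adjusted p = 0.775), *apoa1a* one of -0.35 (adjusted p = 0.105), *apobb.1* one of -0.35 (adjusted p = 0.101), and *mttp*, which loads lipid onto apolipoprotein B, one of -0.34 (adjusted p = 0.174). The share of yolk syncytial layer in each piece was not measured, and its part in these falls was not tested.

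Further genes of lipid and intermediary metabolism were called. Of these, *g6pc1a.1* is a member of the yolk syncytial list, *pck2* and *ppargc1a* are members of the list for gluconeogenesis, and those that the naming rule did not pick were chosen after their values were seen. The others belong to no list, so no share of measured members is given. *apobb.2*, an apolipoprotein B gene, changed by -1.19 (adjusted p = 0.00764) and *apoc2*, the cofactor of lipoprotein lipase, by -0.61 (adjusted p = 0.0362). *dgat2*, which makes triglyceride, fell by 0.67 (adjusted p = 0.0224), *acsl1b* and *acsl4a*, which activate fatty acids, by 0.62 (adjusted p = 0.0362) and 0.52 (adjusted p = 0.0438), and the elongase *elovl5* by 0.67 (adjusted p = 0.0279). *cd36*, a fatty acid receptor, changed by -0.95 (adjusted p = 0.0214). In sugar metabolism, *g6pc1a.1*, a glucose-6-phosphatase gene near *g6pc1a.2* on chromosome 12, measured 3.27, 3.16 and 3.35 in transgenic pieces, against 4.39, 4.46 and 4.56 in control pieces (log2 change -1.21, SE 0.085, limma adjusted p = 0.00739), and *pck2*, a phosphoenolpyruvate carboxykinase, measured 9.71, 9.67 and 9.73 in transgenic pieces, against 10.28, 10.29 and 10.33 in control pieces (log2 change -0.59, SE 0.064, limma adjusted p = 0.0237). *gcgra*, a glucagon receptor, changed by -1.07 (adjusted p = 0.00563), and its dimmer probe set had a log2 difference of -0.029 (adjusted p = 0.953). *ppargc1a*, a coactivator of gluconeogenic and mitochondrial genes, rose by 0.46 (adjusted p = 0.0471). Of 47 measured genes of gluconeogenesis and glycolysis, 3 fell (6.38%, against 0.879% of all named genes) and 1 rose (2.13%, against 0.137%). Other called enzymes were *glula*, glutamine synthetase (-0.68, adjusted p = 0.0209), *mat1a*, which makes S-adenosylmethionine (-0.57, adjusted p = 0.0289), and the folate enzymes *mthfd1l* (-0.63, adjusted p = 0.0305) and *mthfd1b* (-0.57, adjusted p = 0.0438). Of the 5 probe sets of *mthfd1l* only the brightest was called.

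**Figure D3:**
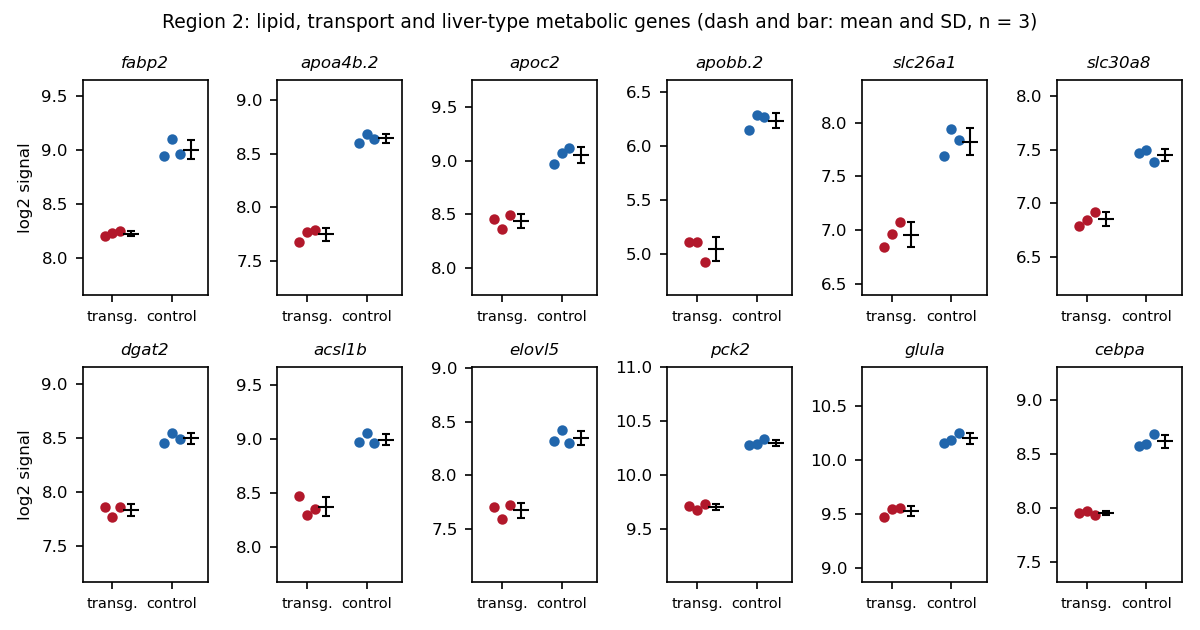
Log2 signal of 12 lipid, transport and metabolic genes on each Region 2 array, transgenic (red) left of control (blue), with the mean and SD (n = 3) beside the points; each panel spans at least 2 log2 units. The groups are apart in each panel, with a mean difference of -1.19 for *apobb.2* and of -0.89 (*apoa4b.2*) to -0.59 (*pck2*) for the other 11 genes.

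Of 405 measured solute carriers, which are membrane transporters, 7 fell (1.73%) and none rose, against 0.879% and 0.137% of all named genes. At an unadjusted p under 0.05, 59 of them were lower and 14 higher, against 1626 and 1094 of all 20485 named genes. A trended, robust limma fit, which called 481 named genes, called 18 solute carriers lower and 0 higher. The largest fall was of *slc23a3*, a relative of the ascorbate transporters, with 5.73, 5.38 and 5.93 in transgenic pieces, against 7.44, 7.46 and 7.33 in control pieces (log2 change -1.73, SE 0.14, limma adjusted p = 0.0129) and 3 of its 5 probe sets called. *slc7a11*, the cystine transporter, fell at a low signal (-0.83, adjusted p = 0.0163). *slc41a1*, *slc43a3b* and the zinc exporter *slc30a1b* changed by -0.88 (adjusted p = 0.0148), -0.69 (adjusted p = 0.0438) and -0.78 (adjusted p = 0.0243).

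Signals carried by purines, sphingosine 1-phosphate and chemokines were called in 6 of 39 measured genes of their list, 5 lower (12.8%, against 0.879% of all named genes) and 1 higher (2.56%, against 0.137%). *adora2ab*, a further adenosine receptor, measured 7.39, 7.35 and 7.40 in transgenic pieces, against 8.35, 8.22 and 8.33 in control pieces (log2 change -0.92, SE 0.07, limma adjusted p = 0.00952). With *adora2b*, 2 of 26 purine receptors fell (7.69%, against 0.879% of all named genes). The nucleotidases *nt5c2b* and *nt5c2l1* changed by -0.79 (adjusted p = 0.0135) and -0.86 (adjusted p = 0.0147). *spns2*, which exports sphingosine 1-phosphate from the yolk syncytial layer, measured 6.24, 6.14 and 6.47 in transgenic pieces, against 7.61, 7.74 and 7.64 in control pieces (log2 change -1.38, SE 0.1, limma adjusted p = 0.00892), and *s1pr2*, a receptor for it that the migration of the heart precursors needs, changed by -0.70 (adjusted p = 0.0481). The receptors for Cxcl12 were called in opposite directions: *cxcr4a* changed by -0.80 (adjusted p = 0.0438), while *cxcr4b* measured 6.03, 5.93 and 6.17 in transgenic pieces, against 5.13, 5.34 and 5.21 in control pieces (log2 change 0.81, SE 0.095, limma adjusted p = 0.0305). Their ligand *cxcl12b* had a log2 difference of -0.17 (adjusted p = 0.604).

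In the lists for Wnt, Fgf, Hedgehog, Bmp and Nodal, and Notch signalling, 1 or 2 genes each were called. Between 2.38% and 4.35% of the measured members fell, against 0.879% of all named genes. These shares rest on 1 or 2 genes each, and most members had a mean log2 signal above 5, such as 33 of 42 in the Notch list. In the level bands above 5, between 1.54% and 2.12% of named genes were called in either direction. At an unadjusted p under 0.05, 1626 of the 20485 named genes were lower and 1094 higher. At that p the Wnt list had 8 lower and 13 higher, and the Fgf list 4 lower and 6 higher. The Hedgehog list had 5 lower and 5 higher, and the Bmp and Nodal list 17 lower and 5 higher. The Wnt list had 2 falls among 67 measured genes, *sfrp1a*, a secreted modulator of Wnt, with 6.55, 6.51 and 6.47 in transgenic pieces, against 7.70, 7.92 and 7.96 in control pieces (log2 change -1.35, SE 0.09, limma adjusted p = 0.0064), and *gpc4*, a glypican that acts in Wnt signalling (-0.79, adjusted p = 0.0185). The heparan sulphate sulphotransferases *hs3st3b1b* and *hs3st3b1a* changed by -0.87 (adjusted p = 0.0164) and -0.73 (adjusted p = 0.0214). With *gpc4* they made 3 falls among 35 glypicans and heparan sulphate enzymes (8.57%, against 0.879% of all named genes). The Fgf list had *fgfr1b* (-0.70, adjusted p = 0.0232) among 33, the Hedgehog list the Gli factor *gli2a* (-0.67, adjusted p = 0.0173) among 23, and the Bmp and Nodal list *eve1* and *vox* among 59. The Notch list had 1 fall, *her3*, and 1 rise, *dlb*, among 42, with 9 lower and 14 higher at an unadjusted p under 0.05. Of 15 measured Notch receptors and Delta ligands, 12 had a log2 difference above 0, with a median of 0.26. Over all 20485 named genes, 10165 were above 0, with a median of -0.0011. Only *dlb* of the 15 was called by limma. In guidance, the semaphorin *sema3fb* (-0.89, adjusted p = 0.0203) and the ephrin receptor *ephb3a* (-0.80, adjusted p = 0.0163) fell among 58 (3.45%, against 0.879% of all named genes). Among protocadherins *pcdh18a* (0.70, adjusted p = 0.0453) and *pcdh10b* (0.70, adjusted p = 0.0258) rose and *pcdh19* (-0.52, adjusted p = 0.0406) fell, of 47. The shares were 4.26% higher and 2.13% lower, against 0.137% and 0.879% of all named genes. In the aryl hydrocarbon receptor list *cyp1a*, a cytochrome P450 induced by that receptor, rose alone of 22 (4.55%, against 0.137% of all named genes). It measured 6.47, 6.27 and 6.44 in transgenic pieces, against 5.43, 5.38 and 5.50 in control pieces (log2 change 0.96, SE 0.081, limma adjusted p = 0.0139).

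Some groups had 1 call or none. For comparison with the counts below, 1626 of all 20485 named genes were lower and 1094 higher at an unadjusted p under 0.05. A trended, robust limma fit called 481 of the named genes. The heat shock list had 1 fall, *hspa1b* (-0.55, adjusted p = 0.0343), among 40 (2.5%, against 0.879% of all named genes), with 6 lower and 0 higher at an unadjusted p under 0.05 and 5 lower called by a trended, robust limma fit. Its mean log2 signal was 7.89 to 7.92 on the transgenic arrays, against 7.96 to 7.97 on the control arrays, so the groups did not overlap. Many other lists were apart too, such as the p53 list (6.03 to 6.06 on transgenic, 6.08 to 6.11 on control arrays). The cell cycle list, for one, was not. These list means include the called genes. The cell cycle list had 1 rise, *cdk4* (0.53, adjusted p = 0.0465), among 52 (1.92%, against 0.137% of all named genes), with 2 lower and 9 higher unadjusted, and 1 lower and 2 higher with the trend. The p53 list had 1 fall, *rrm2b* (-0.48, adjusted p = 0.0493), among 31 (3.23%, against 0.879% of all named genes), with 4 lower and 0 higher unadjusted, and 3 lower with the trend. By limma 0 of 45 Hox genes were called, with 7 lower and 2 higher at an unadjusted p under 0.05, and a trended, robust limma fit called 1, which was higher. The retinoic acid list had 0 calls by limma among 31 genes, with 6 lower and 4 higher unadjusted, and 1 lower and 3 higher with the trend. The epidermis list had 0 among 32 by limma, with 13 lower and 2 higher unadjusted, and 4 lower with the trend, and its median was -0.13. Of 81 cytoplasmic ribosomal proteins, none was called in either fit, with 3 lower and 3 higher at an unadjusted p under 0.05 in limma.

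**Figure D4:**
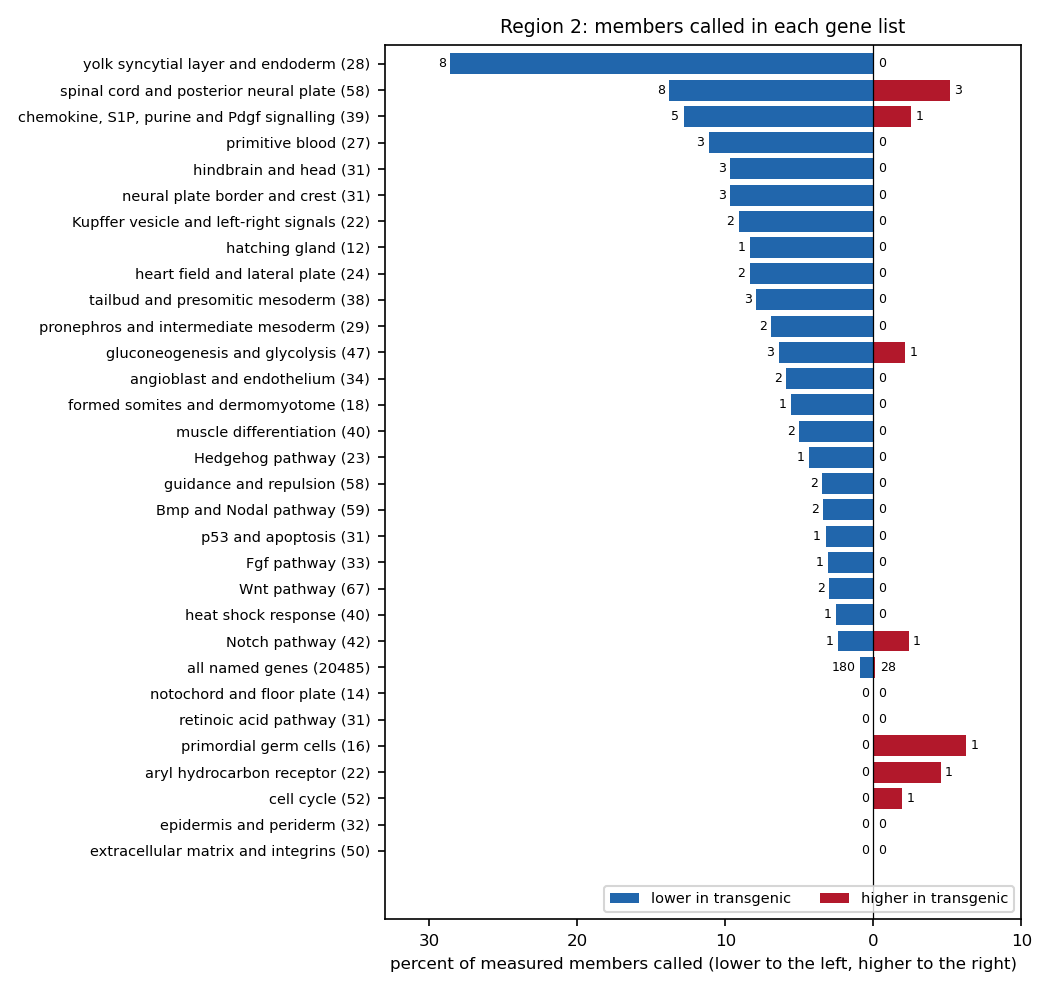
Bars give the percent of measured members of each gene list that fell (left, blue) or rose (right, red) in transgenic pieces of Region 2, with the number called at the end of the bar and the number measured in brackets. The list for the yolk syncytial layer and endoderm has the longest bar, 8 of 28, and all named genes stand at 180 lower and 28 higher of 20485. The lists were chosen with earlier results of these data known.

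Region 1 gave the same contrast on arrays of its own, but its pieces may come from the same embryos, so the regions need not be independent. Of the 180 genes that fell in Region 2, 164 had a change below 0 in Region 1, against 46.2% of all named genes, and 63 fell there by the same test, against 0.649% of all. Of the 28 that rose, 27 were above 0 in Region 1 and 9 rose, against 0.303% of all. The genes that fell had a median change of -0.77 in Region 2 and -0.43 in Region 1, and those that rose 0.69 in Region 2 and 0.53 in Region 1. Since the genes were picked by their Region 2 values, the larger Region 2 medians are a description only. *adora2b*, for one, changed by -2.04 in Region 2 and -2.16 in Region 1, and *pnx* by -0.99 in Region 2 and -0.99 in Region 1.

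The effect itself differed between the regions for 37 of the 208 called genes, against 0.391% of all named genes; the test uses the Region 2 arrays that picked them, so the count is a description. Per the methods, each replicate of a condition gave a pool of pieces of either region, which may come from the same embryos. With condition and replicate as a block, an alternative chosen after seeing the data, 9 of the 37 were called and all 37 had an unadjusted p under 0.05, and with the replicate number alone as a block 17 were called. The adjusted p-values below are without a block. *grin2da*, *prdm12b*, *myf5*, *hnf1bb*, *her3*, *ctslb* and *si:dkey-26g8.5* were called with the condition and replicate as a block, whereas *dmrt2a* was not (adjusted p = 0.0593). The transgenic minus control difference in *dmrt2a* was 1.40 in Region 2 and 0.35 in Region 1 (adjusted p of the difference = 0.000825), and its control pieces averaged 7.37 in Region 2 and 8.39 in Region 1. *grin2da* had one of -2.18 in Region 2 and -0.52 in Region 1 (adjusted p = 0.000155), *prdm12b* one of -1.71 in Region 2 and -0.24 in Region 1 (adjusted p = 0.000668), and *myf5* one of -1.19 in Region 2 and 0.02 in Region 1 (adjusted p = 0.000441). *hnf1bb* had a difference of -0.87 in Region 2 and 0.32 in Region 1 (adjusted p = 0.000825). The fall was the larger one in Region 1 for *her3*, with -1.04 in Region 2 and -3.35 in Region 1 (adjusted p = 4.8e-05). Opposite calls in the regions were found for 4 genes that lie near each other on chromosome 12: *ctslb*, a cathepsin L gene of the hatching gland, changed by -1.53 in Region 2 and 1.06 in Region 1 (adjusted p = 0.00257), and *si:dkey-26g8.5* by -1.67 in Region 2 and 1.69 in Region 1 (adjusted p = 0.000155), with *wu:fa26c03* and *zgc:174153* between them in size. The other hatching gland markers *klf17* and *he1.1* had log2 differences of -0.19 (adjusted p = 0.37) and -0.44 (adjusted p = 0.304) in Region 2, *he1.1* being at a signal of 1.28 to 2.13 on all 6 arrays. Of the 12 measured hatching gland genes 1 fell (8.33%, against 0.879% of all named genes). The mean log2 signal of the list was 5.23 to 5.26 on the transgenic arrays, against 5.48 to 5.49 on the control arrays. This mean includes *ctslb*, so it is no separate observation of the other members. The part of hatching gland cells in these changes was not tested.

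**Figure D5:**
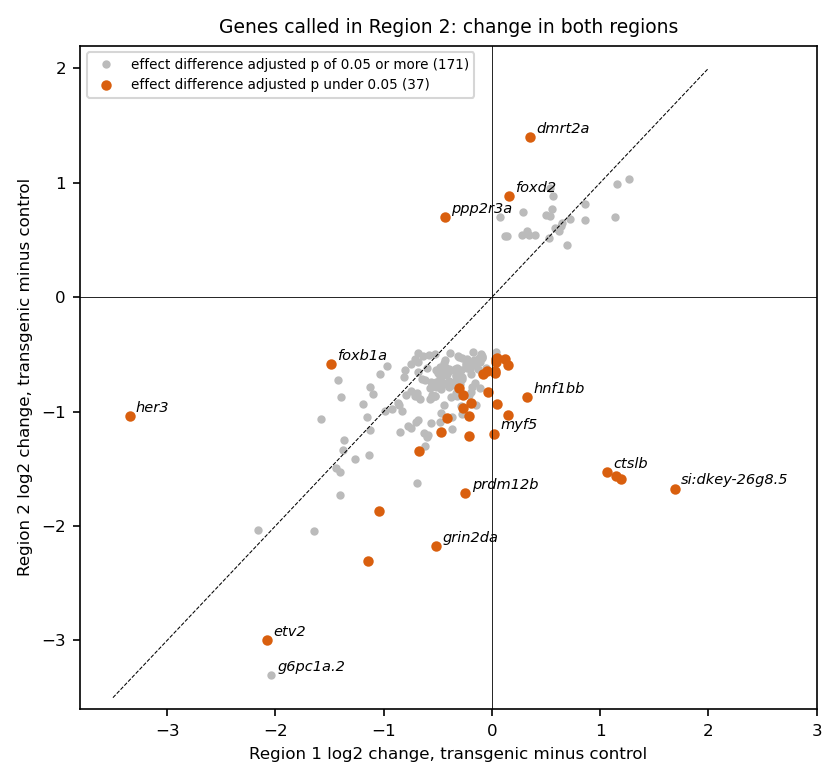
Each point is one of the 208 genes called in Region 2, with its log2 change (transgenic minus control) in Region 1 on the x axis and in Region 2 on the y axis; the dashed line marks equal changes and orange points the 37 genes whose effect differed between the regions. Most points lie in the lower left, *her3* stands far to the left, and *ctslb* and 3 neighbouring genes lie in the lower right.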

How the data were processed

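Log2 signals of the Affymetrix Zebrafish Gene ST arrays were used as the authors deposited them, made with Affymetrix Expression Console and Transcriptome Analysis Console according to the submitters' processing notes. For their summarisation and normalisation no method is given in the sources used here. Per the methods, the 3 pools of a group were biological replicates, and the number of arrays limits the precision: for 1 gene, an exact permutation test cannot give a two-sided p under 0.1.

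Symbols came from the platform annotation, updated through RefSeq tables (27940 probe sets by gene identifier, 1580 by symbol or synonym, 8 kept). Probe sets with several symbols (1845) or none (43839) were tested but not named. The 6 Region 2 arrays were fitted with limma 3.58.1 (lmFit, eBayes) in R 4.3.3, transgenic minus control, with two-sided p-values adjusted by Benjamini-Hochberg over all 75212 probe sets. The one-way ANOVA of the methods was an alternative. The difference between regions was fitted on 12 arrays with 4 group means. The fit was tested on simulated data. Figures were drawn with matplotlib 3.10.9 in Python 3.11.15.

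Members, the 30 gene lists and 66 families were chosen with earlier results of these data known. Of the listed genes, 950 entries matched a gene, 62 did not, and 24 matched only a probe set that carries several symbols. Genes named were those the study names, the 25 largest falls and 10 largest rises past a fold of 2, the 15 moderate changes per direction with the smallest adjusted p, up to 3 called and the first 3 members per list, and 8 genes by the region difference, 178 in all, of which not all are named. Others were chosen after their values were seen. A gene of the left-right list that was called is not reported here by name.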

Additional observations from a re-analysis of the deposited data

Results flagged for a closer look

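The transgenic minus control change differed between the regions for 28 of the 178 genes picked for naming, by the limma test of the difference itself over all 12 arrays. Values are the Region 2 change minus the Region 1 change on the log2 scale, and a negative one means that the change was lower in Region 2. Genes called in Region 2 were picked by arrays that this test also uses. With condition and replicate as a block, 9 of the 28 were called: *grin2da*, *her3*, *si:dkey-26g8.5*, *myf5*, *prdm12b*, *ctslb*, *hnf1bb*, *wu:fa26c03* and *cxcl12b*. This block was chosen after seeing the data, and it called 23 probe sets in all, against 144 without a block. All 28 had an unadjusted p under 0.05 with it.

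The difference was -3.36 for *si:dkey-26g8.5* (adjusted p = 0.000155), -2.78 for *zgc:174153* (adjusted p = 0.00142), -2.71 for *wu:fa26c03* (adjusted p = 0.000825) and -2.59 for *ctslb* (adjusted p = 0.00257), the genes near *ctslb* on chromosome 12 that on the arrays fell in Region 2 and rose in Region 1. It was -1.66 for *grin2da* (adjusted p = 0.000155), -1.46 for *prdm12b* (adjusted p = 0.000668), -1.21 for *myf5* (adjusted p = 0.000441), -1.20 for *hnf1bb* (adjusted p = 0.000825), -1.16 for *osr1* (adjusted p = 0.028) and -1.001 for *g6pc1a.1* (adjusted p = 0.0194), a set that holds the muscle factor *myf5* and the intermediate mesoderm factors *osr1* and *hnf1bb*. It was -0.92 for *etv2* (adjusted p = 0.0462), -0.82 for *psme1* (adjusted p = 0.0175), -0.82 for *pxdc1b* (adjusted p = 0.0129), -0.80 for *slc7a11* (adjusted p = 0.0446), -0.73 for *rbfox1l* (adjusted p = 0.00491) and -0.69 for *tbx16* (adjusted p = 0.0273). It was -0.67 for *sfrp1a* (adjusted p = 0.0471), -0.65 for *otx2b* (adjusted p = 0.0411), -0.61 for *lmo2* (adjusted p = 0.0379), -0.60 for *gli2a* (adjusted p = 0.018), -0.59 for *cyp2aa9* (adjusted p = 0.0394) and -0.49 for *nt5c2b* (adjusted p = 0.0384).

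In the positive direction the difference was 0.73 for *foxd2* (adjusted p = 0.0214), 0.90 for *foxb1a* (adjusted p = 0.0057), 1.04 for *dmrt2a* (adjusted p = 0.000825), 1.21 for *cxcl12b* (adjusted p = 0.00194), 1.72 for *fgf3* (adjusted p = 0.000666) and 2.31 for *her3* (adjusted p = 4.8e-05). *cxcl12b* and *fgf3* were not called in Region 2, with changes there of -0.17 (adjusted p = 0.604) and 0.10 (adjusted p = 0.787), and changed by -1.39 and -1.62 in Region 1 (adjusted p = 0.00164 and 0.00359). *tbx16* had a log2 difference of 0.26 (adjusted p = 0.208) in Region 2 and 0.95 in Region 1 (adjusted p = 0.0162). Groups of 3 arrays were too small for a search for single arrays that stand apart.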

How the results depend on the processing

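The counts moved with the processing. Past a fold of 2, 94 probe sets were called. The one-way ANOVA of the methods called 30, only probe sets with a mean above 5 gave 54, a fold minimum of 1.5 gave 293, and leaving out 1 array gave 16 to 68. At an adjusted p under 0.05, 352 probe sets were called. ANOVA called 144, a trended, robust limma fit 868, a fit of all 12 arrays 1300, only probe sets with a mean above 5 gave 1120, only probe sets with 1 symbol 822, those without repeated values and low-numbered identifiers 667, and leaving out 1 array 16 to 78. Moderate changes in well-expressed genes numbered 138. They were 74 by ANOVA, 405 with the trend and robust spread, 513 with all 12 arrays, 608 with only a mean above 5, 457 with only 1 symbol, 280 without repeats, and 0 to 6 with 1 array left out. The difference between regions passed 144 probe sets, 423 with the trend and robust spread 54 with the replicate number as a block and 23 with condition and replicate as a block, a replicate block chosen after seeing the data. Same-numbered arrays of a condition in the 2 regions had deviations that correlated at 0.017 to 0.079. Fits with fewer probe sets adjust over fewer tests and those without 1 array hold fewer samples; for the other settings the cause was not tested.

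With the replicate number as a block in Region 2, the fit called 0 probe sets past a fold of 2, 0 at an adjusted p under 0.05 and 0 moderate changes, although 7269 probe sets had an unadjusted p under 0.05, all 208 genes among them. The numbers name pools only: deviations of same-numbered arrays correlated at 0.0078, -0.055 and 0.00014, so the arrays were not treated as pairs. The ANOVA kept 59 of the 208 calls, the trend and robust fit 207, quantile normalization once more 198, and centring 175. ANOVA called 0 of the Hox, retinoic acid, epidermis, axonemal dynein, intraflagellar transport and cytoplasmic ribosomal genes. It also called 0 in lists with limma calls, such as pronephros, hindbrain and head, guidance, heparan sulphate, aryl hydrocarbon receptor and Notch. By ANOVA the spinal cord list had 4 lower and 0 higher, and the Pax family 1 lower. The purine and chemokine list had 2 lower and 0 higher. The yolk syncytial list had 6 lower and 1 higher, and the neural plate border list 4 lower and 0 higher. Both scalings kept each of the 4 counts within 1.5 times.

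Sign changes were found for genes that were not called and lay near 0. Quantile normalization once more gave 0.0047 for *ccna1*, 0.0033 for *egr2b* and 0.013 for *fgf8a*, and centring gave 0.0016 for *ccna1* and 0.0029 for *egr2b*. With 1 array left out the values ran over -0.020 to 0.054 for *bmp4*, -0.11 to 0.052 for *ccna1*, -0.0084 to 0.045 for *ccna2*, -0.13 to 0.039 for *cyp1b1*, -0.024 to 0.094 for *dnd1*, -0.100 to 0.018 for *efna1b*, -0.014 to 0.084 for *efna2a*, -0.030 to 0.054 for *egr2b*, -0.085 to 0.055 for *fgf8a*, -0.11 to 0.087 for *myog*, -0.054 to 0.19 for *pax2b*, -0.027 to 0.057 for *shha*, -0.024 to 0.11 for *shhb* and -0.035 to 0.22 for *tbx18*.

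Background was not assessed, since scanner files were not used here.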

Other observations

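Of the 208 genes called in Region 2, 5 pairs are direct neighbours among protein-coding genes in the RefSeq order (assembly GRCz12tu). How many such pairs 208 genes drawn from all named genes would give was not computed, so the count is a description only. *admp* and *pnhd* on chromosome 2 rose by 0.58 and 0.77. In the other pairs the brightest probe set of both genes fell: *xirp1* and *csrnp1a* on chromosome 2 changed by -0.62 and -1.05, *slc26a1* and *rbp4l* on chromosome 21 by -0.86 and -0.66, *pck2* and *psme1* on chromosome 24 by -0.59 and -1.04, and *ivns1abpa* and *swt1* on chromosome 20 by -0.74 and -0.64. In the last pair 1 of 2 probe sets of *ivns1abpa* and 1 of 3 of *swt1* was called, and the next brightest of *swt1* had a log2 difference of 0.040 (adjusted p = 0.898).

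Among genes known only by clone names, 14 of 2867 fell (0.488%) and 2 rose (0.0698%). Both shares were below those of all named genes (0.879% and 0.137%). *stambpl1*, a deubiquitinase, fell by 1.34 in Region 2 and by 1.37 in Region 1 on the log2 scale, and *coro2aa*, a coronin, by 1.16 in Region 2 and 1.12 in Region 1.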
